A study of Mus musculus with 9 samples.

Results

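Fgfbp1, Cyp4b1, Traf1, Phf11c and Tnfrsf21 are 5 mouse genes that were chosen by their RNA levels in thyrocytes, which were higher after antibody blockade of Notch1 and Notch2. They are 5 of 52636 genes in the deposited single-cell table, and all 5 were among the 10627 genes measured well enough to be tested in thyrocytes. The study injected male C57BL/6 mice once, intraperitoneally, and took the thyroids after 7 days. The controls, called RW, were given an antibody against ragweed at 40 mg/kg. In the group called aJ1aJ2 the Notch ligands Jag1 and Jag2 were blocked with 20 mg/kg of antibody to each. In the group called aN1aN2 the receptors were blocked, Notch1 with 5 mg/kg and Notch2 with 10 mg/kg of antibody. The labels give an age of 10 to 12 weeks in one place and 10 to 14 weeks in another. Each group has 3 samples, and each sample is a pool of thyroids from 6 mice, dissociated and sequenced as single cells with the 10x Genomics 3′ kit. The samples are named RW 1, 2 and 3, aJ1aJ2 1, 3 and 4, and aN1aN2 1, 2 and 3. The antibodies reach the whole animal, so thyrocytes were not the only cells in which the receptors or ligands were blocked.

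The genes were selected on measured values, their levels in Th1 cells of aN1aN2 against the other groups. Th1 is the authors' label for the cells treated here as thyrocytes, and these levels are therefore a description with no test. All 10 thyrocyte markers searched, among them thyroglobulin and the thyroid transcription factors Pax8, Nkx2-1 and Foxe1, were detected in Th1 in every group. Their summed level was 92775 to 99270 CPM in RW, 85223 to 122573 in aJ1aJ2 and 98541 to 120224 in aN1aN2. CPM is the counts-per-million value of a gene's unique molecular identifiers (UMIs, counted RNA molecules) over the summed cells of a sample, after a correction for composition. Within the list edgeR called 2 genes higher in aN1aN2 than in RW (Pax8 and Nkx2-1) and 6 lower, among them the iodide transporter Slc5a5, at 244 ± 44.3 CPM in RW and 14.7 ± 4.59 in aN1aN2 (SD, n = 3). The titles carry internal sample numbers in 3 ranges, and all 3 aN1aN2 samples lie in a range that holds no other sample. The receptor blockade and that range cannot be told apart.

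Notch signalling passes from a ligand on one cell to a receptor on its neighbour. Ligand binding lets the receptor be cut, and its inner part enters the nucleus and joins the DNA-binding protein RBPJ to switch genes on. The 5 genes are not textbook Notch targets, and only Traf1 and Tnfrsf21 belong to a shared pathway, TNF receptor signalling. Fgfbp1 encodes a secreted carrier that frees fibroblast growth factors from the extracellular matrix. Cyp4b1 encodes a cytochrome P450 enzyme of the fatty acid hydroxylase family. Traf1 encodes an adaptor that binds the inner tails of tumour necrosis factor (TNF) receptors and is itself a target of the transcription factor NF-kB. Tnfrsf21 encodes death receptor 6, a member of the TNF receptor superfamily, and Phf11c encodes a PHD finger protein of a small gene cluster.

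The genes lie on 5 chromosomes of GRCm38, each is protein coding, and none overlaps another annotated gene. Fgfbp1 (ENSMUSG00000048373) spans chr5:43978858-43981779, Cyp4b1 (ENSMUSG00000028713) chr4:115624725-115647723, Traf1 (ENSMUSG00000026875) chr2:34941750-34961772 and Phf11c (ENSMUSG00000091144) chr14:59380833-59395381, all on the minus strand. Tnfrsf21 (ENSMUSG00000023915) spans chr17:43016555-43089189 on the plus strand. The promoters of 3 genes are shown, from RefSeq's table for GRCm38.p6. Each runs from 250 bases before a gene's start to 50 bases after it, 5′ to 3′ on the gene's own strand. Fgfbp1 is shown because it had the largest difference of the 5 genes between aN1aN2 and RW and is the only one of them with the core letters of the RBPJ motif, in capitals (chr5:43981750-43982049, minus strand). Cyp4b1 is shown because it also changed in endothelium, with a match to the AP-1 motif in capitals (chr4:115647672-115647971, minus strand). Setdb2 is shown as the neighbour of Phf11c that moved with it, with the bases between the RefSeq starts of Setdb2 and Cab39l in capitals (chr14:59440831-59441130, minus strand).
Fgfbp1: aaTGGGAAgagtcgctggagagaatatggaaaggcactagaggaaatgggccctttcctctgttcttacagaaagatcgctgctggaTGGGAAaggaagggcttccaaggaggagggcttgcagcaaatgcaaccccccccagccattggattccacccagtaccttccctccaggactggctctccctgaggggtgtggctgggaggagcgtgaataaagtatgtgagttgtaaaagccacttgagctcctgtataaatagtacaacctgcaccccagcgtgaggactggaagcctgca
Cyp4b1: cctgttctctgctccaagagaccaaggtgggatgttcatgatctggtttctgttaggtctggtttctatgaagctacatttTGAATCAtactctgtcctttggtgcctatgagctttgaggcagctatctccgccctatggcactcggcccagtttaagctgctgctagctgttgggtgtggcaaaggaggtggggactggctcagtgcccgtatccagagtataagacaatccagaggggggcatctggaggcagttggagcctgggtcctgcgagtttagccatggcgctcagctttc
Setdb2: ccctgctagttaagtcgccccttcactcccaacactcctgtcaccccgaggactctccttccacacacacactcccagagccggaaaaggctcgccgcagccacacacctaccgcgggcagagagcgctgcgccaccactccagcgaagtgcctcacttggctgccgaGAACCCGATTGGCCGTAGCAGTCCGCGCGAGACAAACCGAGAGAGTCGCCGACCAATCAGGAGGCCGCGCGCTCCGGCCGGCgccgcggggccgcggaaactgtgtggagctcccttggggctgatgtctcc
The RBPJ core was searched as TGGGAA on both strands and occurs in 25.6% of 32817 promoters of this length. Among the 5 genes it occurs in the promoter of Fgfbp1, whose first bases stand 248 and 163 bases before the start. AP-1 was searched as TGANTCA, found in 7.81% of promoters, and it occurs among the 5 in Cyp4b1. The TATA box letters TATAAA occur in 13.6% of promoters and among the 5 in Fgfbp1. There their first base stands 3 bases after the start and not before it. The NF-kB motif occurs in 8.46% of promoters and in 0 of the 5, Traf1 included. The palindromic glucocorticoid response element occurs in 0.00914% of promoters and in 0 of the 5. A match describes letters in these windows and shows no binding.

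Th1 held 425 cells in RW, 396 in aJ1aJ2 and 348 in aN1aN2, with 62 to 193 cells per sample. Th1 cells were shallower in aN1aN2, with sample medians of 5737 to 7558 UMIs per cell, than in RW (12535 to 22558) and aJ1aJ2 (9968 to 15314). The summed Th1 depth was 872716 to 5233988 UMIs per sample. In the fit of all 10627 genes with the quasi-likelihood test of edgeR, 34.4% were called (Benjamini-Hochberg adjusted p under 0.05) in aN1aN2 against RW, 17.1% as higher and 17.3% as lower. All 5 genes are among those higher, as their selection requires. In aN1aN2 against aJ1aJ2, 22.3% of genes were called, 10.8% as higher and 11.5% as lower, and the 5 genes are again among those higher. In aJ1aJ2 against RW 0.612% of genes were called, 65 in all, a count that was 1 without aJ1aJ2 3, 530 without aJ1aJ2 1 and 649 within the range of sample numbers that holds RW 1, RW 2, aJ1aJ2 3 and aJ1aJ2 4.

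Fgfbp1, the growth factor carrier, was at 5.33, 12.8 and 3.90 CPM in RW 1, 2 and 3 and at 8.07, 13.5 and 19.8 in aJ1aJ2 1, 3 and 4. It was at 134, 147 and 189 CPM in aN1aN2 1, 2 and 3. The lowest aN1aN2 sample stood far above the highest sample of either other group, while RW and aJ1aJ2 overlapped. The group means were 7.35 ± 4.79 CPM in RW, 13.8 ± 5.89 in aJ1aJ2 and 157 ± 28.3 in aN1aN2 (SD, n = 3), a log2 difference of 4.70 between aN1aN2 and RW and of 3.50 between aN1aN2 and aJ1aJ2.

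Cyp4b1, the P450 enzyme, was at 2.00, 1.35 and 2.73 CPM in RW 1, 2 and 3 and at 2.15, 2.56 and 14.0 in aJ1aJ2 1, 3 and 4. In aN1aN2 1, 2 and 3 it was at 71.9, 28.5 and 41.1 CPM. It was the most uneven of the 5 genes, both between samples of aN1aN2 (47.2 ± 22.3 CPM, SD, n = 3) and between cells. One Th1 cell of aN1aN2 1 held 47 UMIs of Cyp4b1, and 1 cell of aJ1aJ2 4 held 16 of the 24 in that sample. The tenth of aN1aN2 Th1 cells with the most Cyp4b1 held 85.8% of its UMIs, against 74.6% for Phf11c, 67.6% for Tnfrsf21, 53.7% for Fgfbp1 and 52.4% for Traf1. The log2 difference was 4.40 between aN1aN2 and RW and 3.18 between aN1aN2 and aJ1aJ2, which was 4.30 without aJ1aJ2 4.

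Traf1, the TNF receptor adaptor, was at 3.77, 7.42 and 5.46 CPM in RW 1, 2 and 3 and at 8.60, 15.4 and 9.34 in aJ1aJ2 1, 3 and 4. It was at 79.6, 67.9 and 85.8 CPM in aN1aN2 1, 2 and 3. All 3 aJ1aJ2 samples lay above all 3 RW samples, and all 3 aN1aN2 samples above both. The aN1aN2 mean was 77.8 ± 9.12 CPM (SD, n = 3), a log2 difference of 3.90 from RW and 2.68 from aJ1aJ2.

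Tnfrsf21, death receptor 6, was at 3.11, 2.02 and 2.15 CPM in RW 1, 2 and 3, at 1.61, 3.49 and 1.75 in aJ1aJ2 1, 3 and 4, and at 24.7, 21.8 and 32.6 in aN1aN2 1, 2 and 3. Phf11c, the PHD finger gene, was at 3.11, 2.02 and 2.15 CPM in RW 1, 2 and 3, at 1.07, 1.16 and 2.33 in aJ1aJ2 1, 3 and 4, and at 28, 28.5 and 29 in aN1aN2 1, 2 and 3. The RW values of these genes coincide because each had 14, 3 and 11 UMIs in the same samples. For both, RW and aJ1aJ2 overlapped and aN1aN2 stood above them. Phf11c was the most even of the 5 genes in aN1aN2 (28.5 ± 0.515 CPM, SD, n = 3, against 26.4 ± 5.61 for Tnfrsf21). It rests on 51, 47 and 24 UMIs in aN1aN2 1, 2 and 3. Counting error alone allows a wider spread than this SD, so the evenness is not read as a trait of the gene. The log2 difference between aN1aN2 and RW was 3.48 for Phf11c and 3.33 for Tnfrsf21, and that between aN1aN2 and aJ1aJ2 was 4.29 and 3.29.

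**Figure D1:**
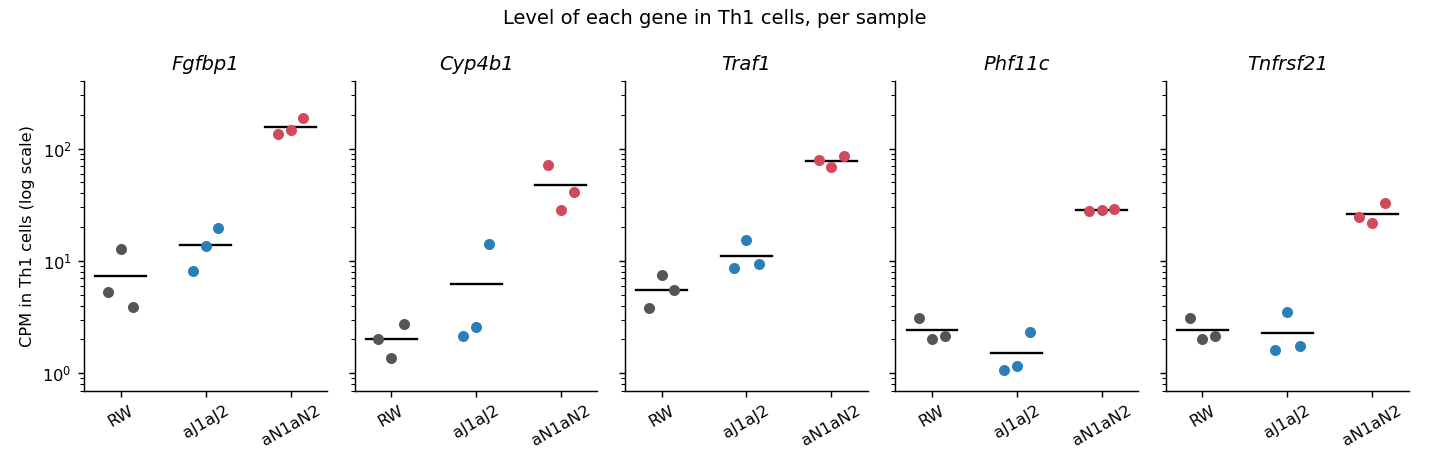
Level of each gene in Th1 cells (CPM, log axis) in each of the 9 samples, with the group mean as a black line. In each panel the 3 aN1aN2 samples lie above all RW and aJ1aJ2 samples, from 134 to 189 CPM for Fgfbp1 and from 21.8 to 32.6 for Tnfrsf21.

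By the size of the log2 difference between aN1aN2 and RW, the 5 genes ranked 4, 5, 7, 11 and 14 among the genes called higher. Among the genes of that range outside the 5 were Kcnc4 (6.44), Hif3a (5.33) and E230001N04Rik (5.30) above Fgfbp1, Pdk4 (3.96) between Cyp4b1 and Traf1, Setdb2 (3.50) just above Phf11c, and Slc25a33 (3.28) just below Tnfrsf21. The 5 genes are therefore a selection from the top of the list and not its leading genes.

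Ligand blockade was compared with control for the same genes in the same fit. This comparison uses RW samples that also entered the choice of the genes. In aJ1aJ2 against RW 0 of the 5 were called, where 0.612% of all genes were. Traf1 came nearest, at 11.1 ± 3.71 CPM in aJ1aJ2 and 5.55 ± 1.83 in RW (SD, n = 3), a log2 difference of 1.22 (SE 0.280) with an edgeR adjusted p of 0.0634. Across 16 alternatives its adjusted p ran from 0.000484 to 0.561, and 4 called it, which were DESeq2, no filter on low counts, leaving out aJ1aJ2 1, and the fit within the range of sample numbers that holds RW 1, RW 2, aJ1aJ2 3 and aJ1aJ2 4. Fgfbp1 differed by 1.20 (SE 0.359, adjusted p 0.150) and was called in 2 of 16 alternatives, with no filter and without aJ1aJ2 1. Cyp4b1 differed by 1.22 (SE 0.684, adjusted p 0.501), with 16 of its 39 aJ1aJ2 UMIs in 1 cell, and by 0.114 without aJ1aJ2 4. Phf11c differed by -0.81 (SE 0.432, adjusted p 0.489) and Tnfrsf21 by 0.04 (SE 0.414, adjusted p 0.995). In a fit of RW and aJ1aJ2 alone Cyp4b1, Phf11c and Tnfrsf21 did not pass the filter on low counts, so they are tested here only through the aN1aN2 samples where they are high. The difference of Phf11c was negative in all 13 alternatives that gave one.

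Detection in single cells was described next, because a mean can rise through a few cells or through many. Fgfbp1 had a UMI in 10.1% of RW Th1 cells (43 of 425), 15.2% of aJ1aJ2 (60 of 396) and 51.7% of aN1aN2 (180 of 348). Over samples this was 10.4% ± 2.02, 14.7% ± 3.11 and 52.7% ± 3.57 (SD, n = 3). Traf1 was detected in 11.3%, 18.9% and 45.1% of Th1 cells of RW, aJ1aJ2 and aN1aN2. Tnfrsf21 was detected in 5.88%, 5.30% and 20.1%, Phf11c in 6.12%, 2.78% and 19.0%, and Cyp4b1 in 3.76%, 4.29% and 18.7%. For each gene the 3 aN1aN2 samples lay above all others, although aN1aN2 cells were the shallowest. Erythroid cells, which should lack these genes, served as the measure of free RNA. In aN1aN2, 0.372% of 807 cells labelled Eryth1 or Eryth2 (median 3420 UMIs) had a UMI of Fgfbp1, 0.496% one of Traf1, 0.248% one of Phf11c, 0.248% one of Cyp4b1 and 0 of 807 one of Tnfrsf21. The Th1 shares in aN1aN2 were far above these at a median depth of 6500 UMIs.

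When each Th1 cell was thinned to 2000 UMIs, Fgfbp1 was detected in 0.793% ± 1.37 of RW cells, 2.12% ± 0.875 of aJ1aJ2 and 23.3% ± 6.33 of aN1aN2 (SD over samples, n = 3). Traf1 was detected in 1.19% ± 1.03, 2.47% ± 1.28 and 15.5% ± 1.37, and Tnfrsf21 in 0.394% ± 0.343, 0.347% ± 0.600 and 6.61% ± 2.51. For Cyp4b1 the shares were 0.370% ± 0.641, 0.839% ± 0.297 and 5.87% ± 4.40. Phf11c was the exception, at 0.394% ± 0.343, 0.295% ± 0.511 and 2.91% ± 2.68. At this depth 0 of 56 cells of aN1aN2 3 had a UMI of Phf11c, so the groups overlapped for Phf11c and not for the other 4 genes. For Cyp4b1 the gap rested on very few cells of a single random draw. It was 1.74% in aN1aN2 2 (2 of 115 cells) against 1.11% in RW 1 (2 of 180) and in aJ1aJ2 1 (1 of 90). At 5000 UMIs per cell the groups overlapped for none of the 5. The difference between aN1aN2 and the other groups was thus present at 2000 and 5000 UMIs per cell for 4 genes, for Cyp4b1 only narrowly at 2000. For Phf11c it was present at 5000 UMIs (1.03% ± 0.980, 1.45% ± 0.546 and 14.5% ± 6.49) and not detectable in aN1aN2 3 at 2000.

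**Figure D2:**
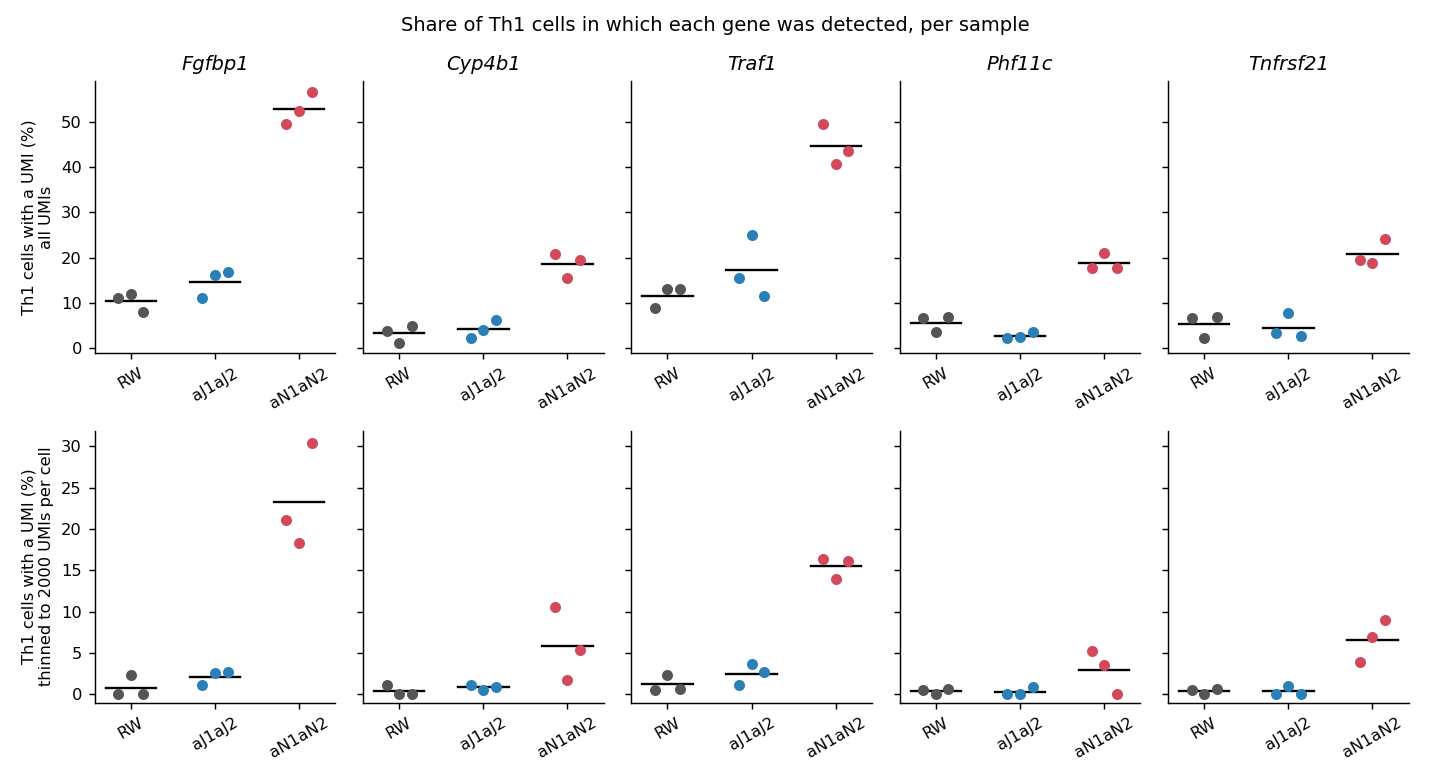
Percent of Th1 cells with at least 1 UMI of each gene, per sample, with all UMIs (upper row) and after thinning every cell to 2000 UMIs (lower row), the black line being the mean of 3 samples. The aN1aN2 samples lie highest throughout except for Phf11c after thinning, where aN1aN2 3 is at 0.

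Cells of aN1aN2 often held RNA of several of the 5 genes. At least 1 gene was detected in 28.9% of RW Th1 cells (123 of 425), 34.6% of aJ1aJ2 (137 of 396) and 75.0% of aN1aN2 (261 of 348). At least 3 were detected in 1.88%, 2.53% and 22.1%. All 5 were found together in 17 cells of aN1aN2 and in 0 cells of RW or aJ1aJ2. The 3 aN1aN2 samples were alike, with 22.2%, 22.7% and 21.0% of cells holding at least 3. After thinning to 2000 UMIs, 9.21%, 5.22% and 12.5% of cells in aN1aN2 1, 2 and 3 held at least 2 of the genes. The genes were chosen for high levels in this group, so its contrast with the others is a description. Pooled, with an interval that covers counting error only, 8.36% of aN1aN2 cells (27 of 323, exact 95% interval 5.58% to 11.9%) held at least 2. In RW 0 of 424 thinned cells did, which allows a share of up to 0.708% (exact upper limit 0.866%), and in aJ1aJ2 0 of 395, which allows up to 0.759% (exact 0.930%).

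**Figure D3:**
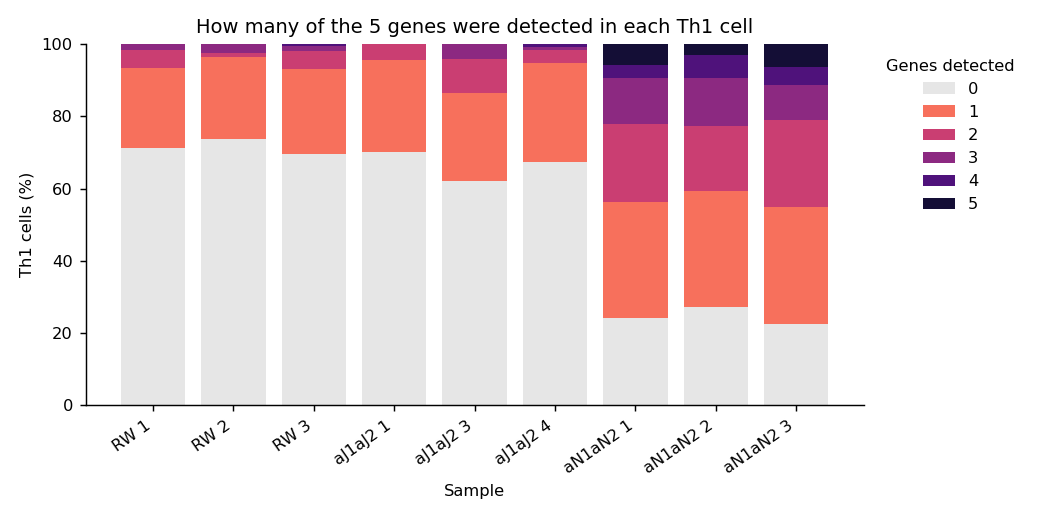
Percent of Th1 cells of each sample in which 0, 1, 2, 3, 4 or 5 of the genes had a UMI, without thinning. Cells with 3 or more make up 21.0% to 22.7% of the aN1aN2 samples and 0 to 4.15% of the others.

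Within aN1aN2, cells with one gene more often held another. Traf1 was detected in 58.3% of the 180 Fgfbp1-positive Th1 cells and in 31.0% of the Fgfbp1-negative ones. Cyp4b1 was detected in 27.2% and 9.52%, Phf11c in 28.9% and 8.33%, and Tnfrsf21 in 27.8% and 11.9%. These shares move with depth, since Fgfbp1-positive cells had a median of 9253 UMIs and Fgfbp1-negative cells one of 4306, and the part of depth in them was not tested. Summed over aN1aN2 cells and with no correction for composition, Fgfbp1 was at 160 CPM in cells under 10000 UMIs and 145 in deeper cells, Traf1 64.4 and 79.9, Cyp4b1 41.5 and 51.7, Phf11c 30.0 and 27.6 and Tnfrsf21 24.7 and 25.1.

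Other cell types could add RNA to Th1. Endothelial markers (8 genes summed) were at 596 to 842 CPM in Th1 of RW, 343 to 755 in aJ1aJ2 and 151 to 706 in aN1aN2, and edgeR called 2 of the 8 lower in aN1aN2 than in RW (Emcn and Kdr) and 0 higher. Endothelial cells themselves carry Cyp4b1. In the 216 aN1aN2 Th1 cells with 0 UMIs of the 8 endothelial markers, Cyp4b1 was detected in 14.4% and was at 38.9 CPM, uncorrected. In the 182 such cells of RW it was detected in 0.549% (0.764 CPM), and in the 221 of aJ1aJ2 in 0.905% (1.03 CPM). In Th1 cells with 1 or more such UMIs Cyp4b1 was higher in every group, at 2.67, 7.25 and 54.5 CPM in RW, aJ1aJ2 and aN1aN2. The cells with 0 were shallower in aN1aN2 (median 5098 UMIs) than in RW (12278) or aJ1aJ2 (10015). A count of 0 marker UMIs therefore excludes less in aN1aN2. Parathyroid markers (3 genes summed) were at 9.45 to 48.4 CPM in Th1 of RW, 18.8 to 72.6 in aJ1aJ2 and 126 to 289 in aN1aN2, and edgeR called 2 of the 3 higher in aN1aN2 than in RW. These were Pth, parathyroid hormone (24.0 ± 16.3 CPM in RW and 146 ± 75.2 in aN1aN2, adjusted p 0.00213), and Chga, a secretory granule protein (7.38 ± 3.6 and 44.6 ± 14.0 CPM, adjusted p 7.33e-05). In the 37 aN1aN2 cells that the authors labelled P, a label with parathyroid markers at 465979 CPM and thyrocyte markers at 258, Fgfbp1, Cyp4b1, Phf11c and Tnfrsf21 had 0 UMIs and Traf1 had 1. A count of 0 of 37 cells allows up to 8.11% of cells with a UMI (exact upper limit 9.49%), and cells without a UMI may still carry the RNA. The 7 markers of basal and squamous epithelium together gave 52.1 to 101 CPM in the RW samples, and 47.9 to 62.6 in the aN1aN2 samples. For the 6 airway markers, of which 5 were at 0 in aN1aN2, the ranges were 1.78 to 11.5 in RW and 0 to 0.606 in aN1aN2. The 7 macrophage markers gave 48.6 to 146 in RW, 17.5 to 289 in aJ1aJ2 and 3.03 to 105 in aN1aN2. Dendritic cell markers (8 genes) were at 62.8 to 90.3, 24.5 to 174 and 3.84 to 62.9 in these groups, and mural markers (5 genes) at 12.8 to 81.9, 11.1 to 44.7 and 13.7 to 18.1. Of these, edgeR called H2-Ab1 (dendritic, adjusted p 0.0466), Acta2 and Myh11 (mural, 0.0375 and 0.00154) lower in aN1aN2 than in RW. Skeletal muscle markers (4 genes) were at 1.76 to 5.10 in RW, 5.12 to 27.4 in aJ1aJ2 and 5.49 to 38.8 in aN1aN2. C cell markers (3 genes) were at 390 to 1041, 12.9 to 2510 and 964 to 1735. Thymic epithelium markers (4 genes) were at 373 to 404, 348 to 576 and 198 to 249. Erythroid markers (5 genes, the globins among them) were at 97.7 to 1658, 138 to 1085 and 660 to 1246. At least 3 erythroid markers were found in 28.2% of RW Th1 cells (120 of 425), 18.2% of aJ1aJ2 (72 of 396) and 56.6% of aN1aN2 (197 of 348). When every Th1 cell with 3 or more markers of another type was left out, 264 RW, 281 aJ1aJ2 and 147 aN1aN2 cells remained. The log2 differences between aN1aN2 and RW were then 5.18 for Fgfbp1, 4.77 for Cyp4b1, 3.65 for Traf1, 3.11 for Phf11c and 3.94 for Tnfrsf21.

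The 5 genes were distributed differently over the thyroid's cells. Most Fgfbp1 was in Th1, with 87.5% of its UMIs in Th1 in RW (63 of 72), and 95.5% in aN1aN2 (644 of 674). Traf1 went from 40.3% of UMIs in Th1 in RW to 85.0% in aN1aN2, and Phf11c from 40.0% to 83.6%. Tnfrsf21 went from 14.5% to 66.7%, and Cyp4b1 from 4.27% to 34.6%. These shares also depend on how many cells of each label a sample yielded. By level, in CPM per sample with no correction for composition, aN1aN2 Th1 held more Fgfbp1 (154 ± 22.6), Traf1 (76.6 ± 6.66) and Phf11c (28.1 ± 0.739) than any other label with 20 cells in a sample (SD, n = 3). The next labels were Th3 for Fgfbp1 (77.6 ± 55.8) and EC3 for Traf1 (43.9 ± 21.5) and Phf11c (9.19 ± 9.99), and their samples did not overlap those of Th1. Th2 had thyrocyte markers at 28510 CPM beside 19473 of neutrophil and 922 of lymphocyte markers. It fell under 20 cells in each aN1aN2 sample. Its 49 aN1aN2 cells (median 1031 UMIs) held 10 UMIs of Traf1, at 243, 132 and 147 CPM in aN1aN2 1, 2 and 3, each above Th1 of the same sample (79.4, 69.0 and 81.4). Pooled, this is 168 CPM (exact Poisson interval 80.4 to 308), and Phf11c, with 5 UMIs, was at 83.8 (27.2 to 196). Fgfbp1 was at 16.8 CPM in Th2 of aN1aN2 (1 UMI, 0.424 to 93.4) and at 58.1 in aJ1aJ2 (4 UMIs, 15.8 to 149). These intervals cover counting error only. In RW, Th2 had 0 UMIs of all 5 genes in 39 cells, which allows up to 78.2 CPM for each. In RW, Traf1 was highest in M (27.0 ± 7.78), a label with macrophage markers at 20730 CPM, and in T1 (20.7 ± 8.52), with lymphocyte markers at 5594 CPM, whose samples overlapped.

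For Tnfrsf21 and Cyp4b1 some vascular labels stood above Th1. Endothelial markers, summed over all samples, were at 18536 CPM in EC1, 7878 in EC2, 5854 in EC3 and 18279 in EC4, and mural markers at 26198 in SM, 2058 in EC2 and 2273 in EC3. In aN1aN2, Tnfrsf21 was at 99.3 ± 42.1 CPM, uncorrected, in SM, at 72.3 ± 56.0 in EC2 and at 25.9 ± 4.52 in Th1 (SD, n = 3). SM and EC2 overlapped, and Th1 lay below the lowest sample of both. In the endothelial labels EC3 (6.62 ± 6.14), EC4 (2.76 ± 4.78) and EC1 (1.82 ± 1.63) Tnfrsf21 was lower than in Th1, and the samples did not overlap. Cyp4b1 was at 250 ± 95.5 in EC2, 218 ± 86.9 in SM, 206 ± 8.24 in EC4, 147 ± 53.1 in EC1 and 56.4 ± 15.3 in EC3, against 46.5 ± 22.4 in Th1. EC3 and Th1 overlapped, while Th1 and the next label, Th3, did not.

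Levels outside Th1 were not used in choosing the genes, so the groups could be compared by test there. The receptor blockade and the range of sample numbers that holds aN1aN2 cannot be told apart in these labels either. Each label was fitted over all its genes where at least 2 samples of both groups had 20 cells, which 8 labels met for aN1aN2 against RW. Only 6 pairs of a gene and a label had enough UMIs to enter, 4 of them Cyp4b1 in the endothelial labels EC1 to EC4. edgeR called 3 of the 6 pairs, all higher in aN1aN2 and 1 of them dependent on how the filter was passed, against 17.8% of all genes called in EC1, 15.5% in EC2, 5.91% in EC3 and 21.1% in EC4.

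Cyp4b1 rose in EC1 and EC4, endothelial labels. In EC1 it was at 57.9, 65.4 and 80.4 CPM in RW 1, 2 and 3, at 91.3, 88.1 and 67.3 in aJ1aJ2 1, 3 and 4, and at 176, 180 and 85.9 in aN1aN2 1, 2 and 3. The aN1aN2 samples lay above all RW samples, aN1aN2 3 only just. The log2 change was 1.13 (SE 0.218, edgeR adjusted p 0.000731), and it was called in all 10 alternatives. In EC4 it was at 88.3, 88.9 and 84.7 CPM in RW and 239, 228 and 238 in aN1aN2, and all 3 aJ1aJ2 samples (190, 174 and 101) lay between these groups. The log2 change was 1.42 (SE 0.302, adjusted p 0.00102) and was also called in all 10 alternatives, from 98 UMIs in aN1aN2 and 25 in RW. EC4 cells were shallow, with a median of 1000 UMIs in aN1aN2 and 970 in RW.

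In EC2 and EC3 Cyp4b1 was not called. In EC2 it was at 177 and 166 CPM in RW 1 and 2 and at 399, 180 and 331 in aN1aN2 1, 2 and 3, a log2 difference of 0.82 (SE 0.314, edgeR adjusted p 0.0939) that passed only without aN1aN2 2. RW 3 had too few EC2 cells. In EC3 it was at 69.9, 90.9 and 56.1 CPM in RW and 60.2, 44.7 and 76.8 in aN1aN2, a log2 difference of -0.28 (SE 0.325, adjusted p 0.703). Whether the change differed between labels was tested with limma on each sample's difference of log2 CPM between labels, a comparison chosen after these values were seen. The change in EC4 exceeded that in EC3 by 1.51 (95% interval 0.732 to 2.29, p 0.00101, adjusted p 0.0630 over 3049 genes) and that in EC1 exceeded EC3 by 1.27 (0.276 to 2.26, p 0.0177, adjusted p 0.227 over 6190 genes). EC4 and EC1 differed by 0.24 (-0.508 to 0.984, adjusted p 0.844). None of the 3 differences passed the adjustment.

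**Figure D4:**
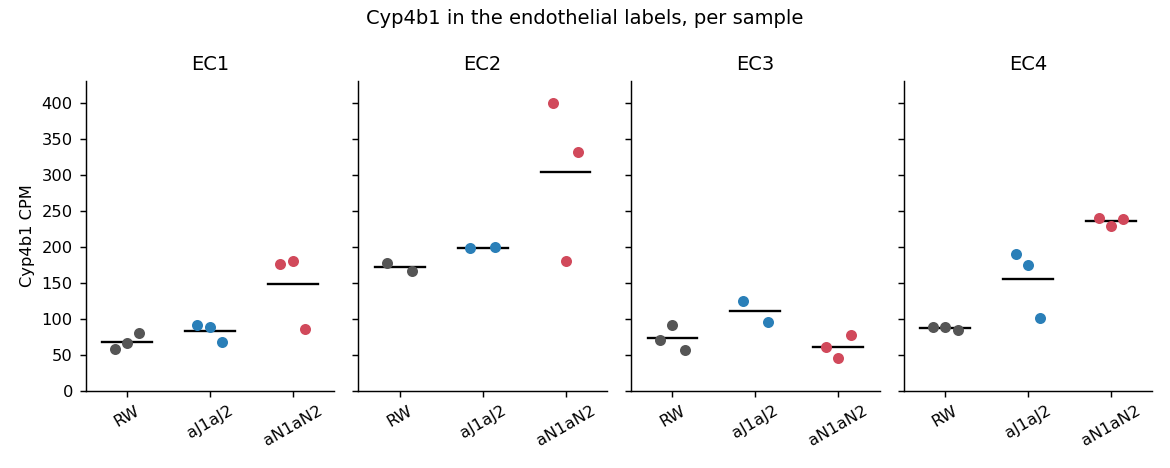
Cyp4b1 in the 4 endothelial labels (CPM, linear axis) for each sample with at least 20 cells of the label, with group means as black lines. In EC4 the aN1aN2 samples lie at 228 to 239 CPM and the RW samples at 84.7 to 88.9, while in EC3 the groups overlap.

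The third called pair was Traf1 in EC3, at 12, 4.04 and 16 CPM in RW 1, 2 and 3 and 25.8, 44.7 and 69.8 in aN1aN2 1, 2 and 3. These rest on 14 UMIs in RW and 20 in aN1aN2. Traf1 passed the filter on low counts in EC3 through 2 aN1aN2 samples and 0 samples of the other groups, so the fit took it in because of the group where it was high, and the call is no independent support. The log2 change was 2.17 (SE 0.586, edgeR adjusted p 0.0397), and 6 of 10 alternatives did not call it, among them DESeq2 and leaving out RW 1, RW 2, aN1aN2 2 or aN1aN2 3. Tnfrsf21 in EC2, the sixth pair, differed by -0.17 (SE 0.574, adjusted p 0.887). With the filter on low counts and all samples, Fgfbp1 and Phf11c had too few UMIs to enter a fit outside Th1. Fgfbp1 in Th3, a label with thyrocyte markers at 81973 CPM beside 27560 of C cell and 15078 of skeletal muscle markers, had 3, 0 and 0 UMIs in RW 1, 2 and 3 and 8, 3 and 8 in aN1aN2 1, 2 and 3. With no filter it was called there (log2 change 3.66, edgeR adjusted p 0.00201), as were 2.65% of genes. With the filter it entered in 7 of the 9 fits that left out 1 sample. It was called without aN1aN2 2 (4.47, adjusted p 0.0364, with 4.36% of genes called) and not in the other 6, with adjusted p of 0.0743 to 0.283. The fits with the filter took in Fgfbp1 through its aN1aN2 samples.

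Between the blockades, edgeR called 1 of 8 pairs, Cyp4b1 in EC1, higher in aN1aN2 than in aJ1aJ2 by 0.89 (SE 0.221, adjusted p 0.00878), where 13.5% of all genes were called. It was lost without aJ1aJ2 4, aN1aN2 1 or aN1aN2 2. In EC4 the difference was 0.70 (SE 0.262, adjusted p 0.0676), against 17.2% of genes called, and 0 pairs were called in EC2 (10.5% of genes) or EC3 (1.27%). Of the other pairs, Tnfrsf21 in SM was at 242 ± 24.0 CPM in aJ1aJ2 (n = 2) and 116 ± 49.6 in aN1aN2 (n = 3), a difference of -1.09 (SE 0.454, adjusted p 0.200, with 4.05% of genes called). With no filter on low counts 3 pairs were called. They were Cyp4b1 in EC1, Fgfbp1 in Th3 (higher, 3.62, adjusted p 0.0233, with 0.787% of genes called) and Cyp4b1 in F (lower, adjusted p 0.00976, with 5.03% of genes called). F had fibroblast markers at 35895 CPM. There Cyp4b1 was at 13.4, 17.6 and 21.2 CPM, uncorrected, in aJ1aJ2 1, 3 and 4 (34 UMIs), had 2 UMIs in RW and 0 in aN1aN2. A count of 0 allows 16.9, 18.1 and 28 CPM in aN1aN2 1, 2 and 3, so single samples were too shallow to show this difference. Pooled over the 121 F cells of aN1aN2, 0 UMIs allow up to 8.19 CPM (exact upper limit, counting error only), below the lowest aJ1aJ2 sample. In aJ1aJ2 against RW, 0 of 6 pairs were called by edgeR, with 2 at an unadjusted p under 0.05, Cyp4b1 in EC3 (0.0435) and in EC4 (0.0434). DESeq2 also called 0. The share of all genes called was 1.43% in EC1, 1.91% in EC2, 0.0618% in EC3 and 0.903% in EC4.

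The genome around the 5 genes was examined in the same Th1 fit. Within 100 kb of the 5 genes lie 32 annotated genes, of which 7 were in the Th1 fit, and edgeR called 3 higher and 0 lower in aN1aN2 against RW, where 17.1% of all genes were called higher. Both tested neighbours of Phf11c were among the 3. They are described here after their values were seen. Setdb2, a protein of the SET domain histone methyltransferase family, lies 6627 bases upstream of Phf11c on the same strand. It was at 7.10, 6.07 and 3.71 CPM in RW 1, 2 and 3, at 7.53, 4.89 and 10.5 in aJ1aJ2 1, 3 and 4 and at 51.6, 51.5 and 90.7 in aN1aN2 1, 2 and 3. Its log2 change was 3.50 (SE 0.302, adjusted p 6.01e-07), beside 3.48 for Phf11c. Cab39l, related to an activator of the kinase LKB1, runs the other way from Setdb2, with 82 bases between the RefSeq starts, the capitals in the Setdb2 sequence. It was at 65.7, 57.4 and 59.5 CPM in RW and at 187, 254 and 334 in aN1aN2, a log2 change of 2.06 (SE 0.176, adjusted p 5.42e-07). In aJ1aJ2 against RW neither was called (Setdb2 0.35, adjusted p 0.763, and Cab39l 0.20, adjusted p 0.709). The third neighbour was Efcab14 near Cyp4b1 (0.57, SE 0.120, adjusted p 0.00201).

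The other genes of the Phf11 cluster had few UMIs in Th1. Phf11d, 15362 bases away on the same strand, was at 5.26 ± 0.819 CPM in RW, 6.46 ± 2.52 in aJ1aJ2 and 4.07 ± 1.42 in aN1aN2 (SD, n = 3), from 56, 46 and 17 UMIs. Phf11b had 15, 13 and 1 UMIs and Phf11a 1, 0 and 0, and all 3 were too low for the fit. The count of Phf11c is itself uncertain. Of the 50-base stretches in the last 500 bases of its transcript, where 3′ libraries place their reads, 66.3% also occur in other genes. Over the whole transcript 265 of 370 such shared stretches occur in Phf11d. Reads from such stretches cannot be given to one gene. For Fgfbp1, Traf1 and Tnfrsf21 this share was 0, and for Cyp4b1 it was 6.17%.

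**Figure D5:**
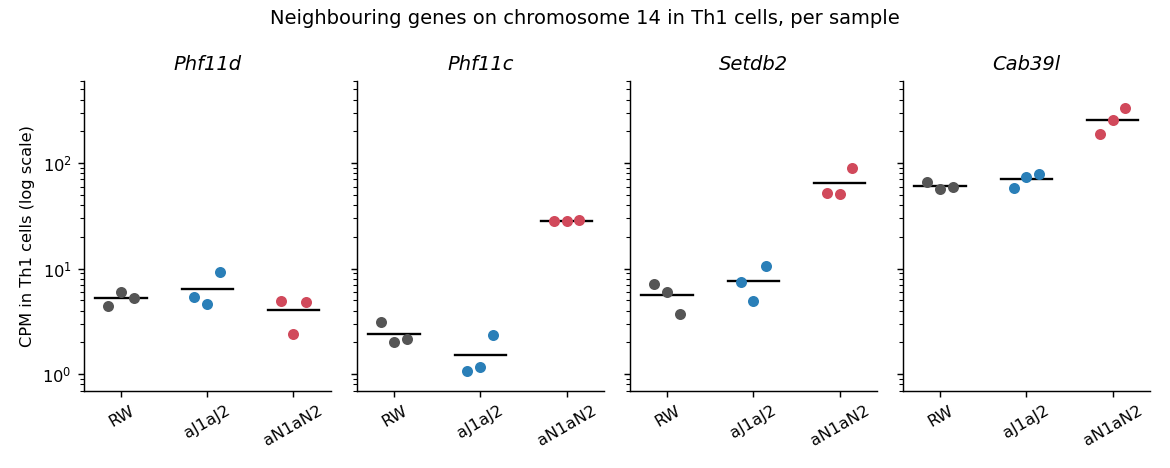
Levels in Th1 cells (CPM, log axis) of Phf11d, Phf11c, Setdb2 and Cab39l, in their order on chromosome 14, per sample with group means as black lines. In the aN1aN2 samples Phf11c, Setdb2 and Cab39l lie above all RW samples and Phf11d does not.

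The pathways around each gene were counted from fixed lists in the same Th1 fit. Across all genes tested the median log2 change in aN1aN2 against RW was 0.02, with 17.1% of genes called higher and 17.3% lower, and the counts of each list stand against these shares. Of 20 tested genes of fibroblast growth factor signalling, the field of Fgfbp1, 7 rose and 1 fell (median 0.25). In aN1aN2 against aJ1aJ2, 1 of the 20 was called higher and 2 lower, where 10.8% and 11.5% of all genes were. Spry1, a feedback inhibitor of receptor tyrosine kinase signalling, rose by 0.87 (edgeR adjusted p 0.000309), from 32.1 ± 3.31 to 59.1 ± 4.50 CPM. Spred2, another inhibitor, rose by 0.76 (0.00675), and the adaptor Grb2 by 0.48 (0.00606). Against aJ1aJ2 neither Spry1, Spred2 nor Grb2 was called (edgeR adjusted p 0.0645, 0.0561 and 0.0895), and Spry1 was at 45.3 ± 6.83 CPM in aJ1aJ2. The proteoglycan Sdc2 changed by -0.56 (0.00346). The transcription factor Etv5 was the only gene of the pathway lists called in aJ1aJ2 against RW. It was at 31.7 ± 8.86 CPM in aJ1aJ2, 12.5 ± 2.54 in RW (1.41, edgeR adjusted p 0.0244) and 14.7 ± 7.31 in aN1aN2. Of the 10 thyrocyte markers, 1 was called lower in aJ1aJ2 than in RW.

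Of 8 tested CYP4 enzymes and P450 partners, 3 rose and 2 fell (median -0.15). Por, the reductase that feeds electrons to P450 enzymes, rose by 0.74 (edgeR adjusted p 0.000523), from 115 ± 18.2 to 193 ± 11.3 CPM, and Cyp4f13 rose by 0.80 (0.00880). Cyb5a, the alternative electron donor cytochrome b5, fell by 0.89 on the log2 scale (2.66e-05), from 275 ± 11.6 to 148 ± 11.9 CPM, and Cyb5r1 by 0.77 (0.00346).

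Genes of NF-kB and TNF receptor signalling surround Traf1 and Tnfrsf21. Of 28 tested TRAF adaptors and NF-kB feedback targets, 3 rose and 7 fell (median -0.09). Relb, an NF-kB subunit, fell by 1.23 on the log2 scale (edgeR adjusted p 0.000354), the receptor Cd40 by 1.69 (0.000749), the adaptor Traf3 by 1.34 (0.00283) and the inhibitor Nfkbie by 1.32 (0.00290). Of 13 tested TNF receptors and death domain adaptors, 2 rose and 3 fell (median -0.05). Tnfrsf9, a costimulatory receptor that binds Traf1, fell by 2.18 (4.61e-07), from 93.5 ± 8.38 CPM in RW to 20.6 ± 0.707 in aN1aN2. The death receptor Fas rose by 1.10 (0.00781), while the adaptor Tradd fell by 1.02 (0.00141) and the protease Casp8 by 0.48 (0.0316). Th1 cells with 3 or more macrophage markers were 7.29% in RW (31 of 425), 5.56% in aJ1aJ2 (22 of 396) and 0.575% in aN1aN2 (2 of 348). The part of such cells in these falls, and in those of interferon-stimulated genes, was not tested.

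Of 25 tested interferon-stimulated genes, 2 rose and 7 fell (median -0.36), among them Ifi27 (-1.46, edgeR adjusted p 7.07e-06), Ddx58 (-1.59, 1.50e-05), Bst2 (-1.0, 0.000248) and Psmb9 (-1.01, 0.00447). Of 13 tested Notch targets and pathway genes, 3 rose and 3 fell (median -0.14). Ccnd1, a cyclin, fell from 85.8 ± 8.10 to 23.5 ± 5.81 CPM (-1.79, 2.16e-06). The cell cycle inhibitor Cdkn1a rose by 1.90 (8.83e-06), the receptor Notch2 by 0.96 (0.000252) and Myc by 1.34 (0.00478).

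The genes whose Th1 levels were most like each of the 5 were found by Pearson correlation of log2 CPM over the 9 samples, among 8692 genes. They are given as a description, since the points share libraries and mostly reflect the difference between aN1aN2 and the rest. Nearest to Fgfbp1 were Zfp467 (r = 0.991), Nono (0.990) and Ces1d (0.990). Nearest to Traf1 were Trmt1 (0.996), Ndrg1 (0.994) and Rps19 (0.991), and Trmt1 was at 23.9 ± 4.28, 34.5 ± 4.58 and 101 ± 4.12 CPM in RW, aJ1aJ2 and aN1aN2 (SD, n = 3). Nearest to Cyp4b1 were Sfxn3 (0.979), 2310061I04Rik (0.976) and Pbx2 (0.972). Nearest to Tnfrsf21 were Gstm1 (0.988), Pde1a (0.987) and Ccni (0.985). Nearest to Phf11c were Aup1 (0.986) and Pdk4 (0.985), a kinase that restrains pyruvate dehydrogenase.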

How the data were processed

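Single thyroid cells of 9 samples in 3 groups were analysed. The authors deposited raw counts of UMIs per gene and cell, and a table with a sample and 1 of 16 cell labels for each cell. Cell Ranger and GRCm38 are named per the submitters' processing notes, and how cells were labelled is not given in the sources used here. The table held 10186 cells, from 583 to 1805 per sample, and 3013324 to 11880793 UMIs per sample. Every cell had at least 500 UMIs, and 15 barcodes occurred in more than 1 library. No doublet caller was run. Identifiers were matched to symbols for 52403 of 52636 genes, and the unmatched ones held 0.0293% of UMIs. RW 3 and aJ1aJ2 1 carry no number in their titles, and theirs are free numbers that serve as names only.

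UMI counts of the cells of each label were added up within a sample and tested with edgeR 4.0.16 (R 4.3.3; TMM, filterByExpr, quasi-likelihood test, 3 group means over all 9 samples). A gene was called at a Benjamini-Hochberg adjusted p below 0.05. Outside Th1 a sample needed 20 cells of a label. Differences between labels were tested with limma 3.58.1. Thinned cells were drawn to 2000 UMIs and shallower cells left out. Intervals and limits for counts of 0 (3 counts) cover counting error only. Replicates differed by more than sampling noise (chi-square per degree of freedom 1.66 to 8.08), and whether the pools came from separate experiments is not stated, so p-values measure the spread between these pools. Alternatives were DESeq2 1.42.0, other size factors, no filter, equal cell numbers, deeper cells, removal of doublet-like cells, joining Th3 to Th1 and leaving out samples.

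The 5 genes, the lists and the markers were chosen with earlier results of these data known. Named genes were the 5, the 3 most alike to each (mean of at least 10 CPM; 1 of them is not reported here), and up to 4 called genes per list with the smallest adjusted p in aN1aN2 against RW, plus every list gene called in aJ1aJ2 against RW. Neighbours and promoters came from GENCODE M21 and RefSeq tables of GRCm38.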

Additional observations from a re-analysis of the deposited data

How the results depend on the processing

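In aN1aN2 against RW the 5 genes stayed higher and called in Th1 in all 16 alternatives, with log2 differences of 4.19 to 5.18 for Fgfbp1, 3.74 to 5.00 for Cyp4b1, 3.65 to 4.04 for Traf1, 3.11 to 3.72 for Phf11c and 3.00 to 3.94 for Tnfrsf21. In aN1aN2 against aJ1aJ2 they stayed so in all 14, with 3.29 to 3.77 for Fgfbp1, 2.41 to 4.30 for Cyp4b1, 2.53 to 3.10 for Traf1, 3.62 to 4.61 for Phf11c and 2.97 to 3.89 for Tnfrsf21. These comparisons chose the genes, so this is no independent support. In aJ1aJ2 against RW the difference of Tnfrsf21 changed sign without RW 2 (-0.01), without RW 3 (-0.10) and without aJ1aJ2 3 (-0.57), and leaving out 1 sample gave -0.57 to 0.27.

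Removing Th1 cells with 3 or more markers of another type lowered the genes called in aN1aN2 against RW from 3653 to 1804 and against aJ1aJ2 from 2374 to 1171, with 147 of 348 aN1aN2, 264 of 425 RW and 281 of 396 aJ1aJ2 cells left. Leaving out 1 sample gave 2689 to 3280 genes against RW and 1548 to 2205 against aJ1aJ2. In aJ1aJ2 against RW, 65 genes were called, and the count was 103 with DESeq2, 424 with no filter, 26 with only those groups, 110 without doublet-like cells, 30 with Th3 joined, 135 with the range of sample numbers as a term, 649 within the range that holds RW 1, RW 2, aJ1aJ2 3 and aJ1aJ2 4, and 1 to 530 when 1 sample was left out. Outside Th1, the pairs called in aN1aN2 against aJ1aJ2 were 3 with no filter, 1 of them lower, and 0 to 2 with 1 sample left out, against 1. The cause was not tested.

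Between RW and aN1aN2, numbers 1 and 2 are shared, and the numbers did not pair the samples (r = -0.04 between the differences of the pairs). With the replicate block, 3524 genes were called over these 4 samples, and 3370 without it. The groups aJ1aJ2 and aN1aN2 share only number 3, and aJ1aJ2 and RW no number in their titles, so no block could be fitted there. Low counts limit what can be said of Phf11c, with 28, 11 and 122 Th1 UMIs in RW, aJ1aJ2 and aN1aN2. They also limit all 5 genes in most labels outside Th1, and the part of depth in this was not tested.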
